A study of Mus musculus with 6 samples.

Results

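The factors that start and extend protein chains on the ribosome were followed in 3T3-L1 cells, mouse fibroblasts of an established line able to become fat cells, with and without resveratrol, a plant polyphenol. The set holds every probe set whose annotation names exactly 1 gene with a symbol beginning Eif (initiation factors) or Eef (elongation factors), the kinases and binding proteins named with them included. It comprises 156 of the 45101 probe sets on the array and 59 of the 18194 genes named alone. The rule reads gene names and no measured value, and 8 further probe sets that name such a gene together with another were left out. Each of 6 arrays measured total RNA, 3 from untreated control cultures and 3 from cultures given resveratrol. The labels state neither dose nor length of treatment nor whether the cells had been differentiated, and all groups are the same cell line with no other agent or allele named. The labels speak of replicate cultures but do not tell if these were independent experiments, and a p-value then reflects no more than the spread among these arrays, which may be technical.

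Translation begins when eIF2 carries the initiator tRNA to the small ribosomal subunit, held together by the many-subunit scaffold eIF3, while eIF4F (the cap-binding eIF4E, the scaffold eIF4G and the helicase eIF4A) recruits the mRNA. Well-known brakes are phosphorylation of eIF2, which blocks its recycling by the exchange factor eIF2B, and the eIF4E-binding proteins, which release eIF4E when the kinase mTORC1 phosphorylates them. During elongation eEF1A brings each aminoacyl-tRNA, the eEF1B complex recharges eEF1A with GTP, and eEF2 moves the ribosome along. Much of this control acts on the proteins, whereas the arrays measured only transcripts.

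The 6 arrays differed in brightness apart from treatment. The spiked control transcripts were brighter on control replicates 1 and 2 and resveratrol replicate 1 (mean log2 signal 10.5 to 10.7) than on control replicate 3 and resveratrol replicates 2 and 3 (9.75 to 10.01). The brighter arrays had 0.849% to 0.931% of probe sets above an intensity of 4000, and the dimmer arrays 0.705% to 0.729%. Since each group has arrays on both sides, values with this split as a block, called the spike block below, are given beside each named translation factor or list gene whose call they change. A difference within the brighter or the dimmer arrays rests on 1 array of one group and 2 of the other. The ratio of 3′ to 5′ signal for Gapdh, a sign of RNA integrity, was 0.794 to 0.831 in control and 0.729 to 0.792 in resveratrol arrays, and for Actb 1.24 to 1.27 and 1.20 to 1.29. Fat cell markers were bright, with a summed intensity over the list of 34350 to 50726 in control and 33373 to 40648 in resveratrol arrays, and 1 of 7 tested (Cidec, at −0.57) was lower (14.3%, beside 10.5% of all genes called in either direction). The median log2 change of these 7 was −0.26. Pparg, the master regulator of fat cells, had −0.26 (adjusted p = 0.061) and passed with the spike block (−0.29, adjusted p = 0.0331). The others tested moved closer to no change with the spike block. Adipoq went from −0.31 to −0.17, Fabp4 from −0.22 to −0.063, Lpl from −0.19 to −0.0033 and Cebpa from −0.098 to −0.030. Cidec went from −0.57 to −0.48 and Lipe from −0.28 to −0.24. Preadipocyte and fibroblast markers summed to 20729 to 23840 and 18337 to 21977, and of 6 tested Thy1 was higher (0.40, adjusted p = 0.0078), while Col1a1 had −0.32 and did not pass (0.0757). Summed macrophage markers were dim but apart between the groups, 284 to 366 against 392 to 448. Of all genes tested, 30.2% had groups that did not overlap. Among 5 macrophage markers tested Cd14 was higher (0.47, adjusted p = 0.0365), which is 20% beside 10.5% of all genes. Lyz2 had 0.43, Cd68 0.21, Csf1r 0.15 and Adgre1 −0.035, and these did not pass. Ptprc, Itgam and Mpeg1 were too dim to test (Ptprc at 2.6 to 10.8 on every array). Endothelial markers summed to 66.1 to 89.8 and 75.1 to 101, with Pecam1 at 1.6 to 10.7 and Kdr at 32.5 to 58.7. Epithelial markers summed to 108 to 341 and 207 to 218, with Cdh1 at 4.3 to 8.8, Krt8 at 44.8 to 74.7 and Epcam at 22.5 to 246, and 0 of the 2 tested in either list passed. The part of these differences in the results below was not tested, and in a culture measured as a whole, fewer cells of a type and less RNA per cell cannot be told apart.

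Few translation factor transcripts changed with resveratrol, and those that did changed by less than 1 on the log2 scale. By its brightest probe set, a gene was called for 4 of the 56 genes tested, and all 4 were higher: Eef1e1 and Eef1d of the eEF1 group, and Eif3b and Eif3d of the eIF3 scaffold. That is 7.14% of the set beside 10.5% of all 12630 genes tested (5.32% higher and 5.21% lower), so the share called was no higher than the background. Counted by probe set, 7 were higher and 2 lower among 135 tested (6.67% against a background of 8.17%, made up of 3.95% higher and 4.22% lower), which adds Eif4e3 and Eif5 (lower) and Eef1aknmt (higher) through probe sets that are not their brightest. The other 21 probe sets were too dim to test, and with them Eif2s3y, Eif4a3 and Eef2kmt, whose brightest probe set was among them. The groups did not overlap for 19 of 56 genes (33.9%, against 30.2% of all genes) and 40 of 135 probe sets (29.6% against 26.4%). The median log2 change of the 56 genes was 0.04, beside 0.02 for all genes, with a range from −0.36 to 0.48. For the 52 genes not called, the 95% confidence intervals lay within −0.62 to 0.93.

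Changes here are differences of log2(intensity + 16), resveratrol minus control, with the standard error from limma's linear model and a Benjamini-Hochberg adjusted p over all 27022 probe sets tested. The number of calls fell on leaving out some single arrays. Without control replicate 2, or without resveratrol replicate 1, 2 or 3, 1 gene (Eef1e1) stayed past the threshold of 0.05. The probe sets called were then 2, 2, 2 and 3, those of Eef1e1 and Eif4e3 each time, and without resveratrol replicate 3 also one of Eif3i that had not passed with all arrays. With no filter on dim probe sets Eef1e1 and Eif3b were the genes called, and with no intensity trend in the model Eef1e1 alone. With quantile normalization 8 genes were called (7 higher, 1 lower), which added Eif3i, Eif3l, Eif4a1 and Eif4e3. With the spike block 12 probe sets were called (11 higher, 1 lower), 8 of the 9 among them.

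**Figure D1:**
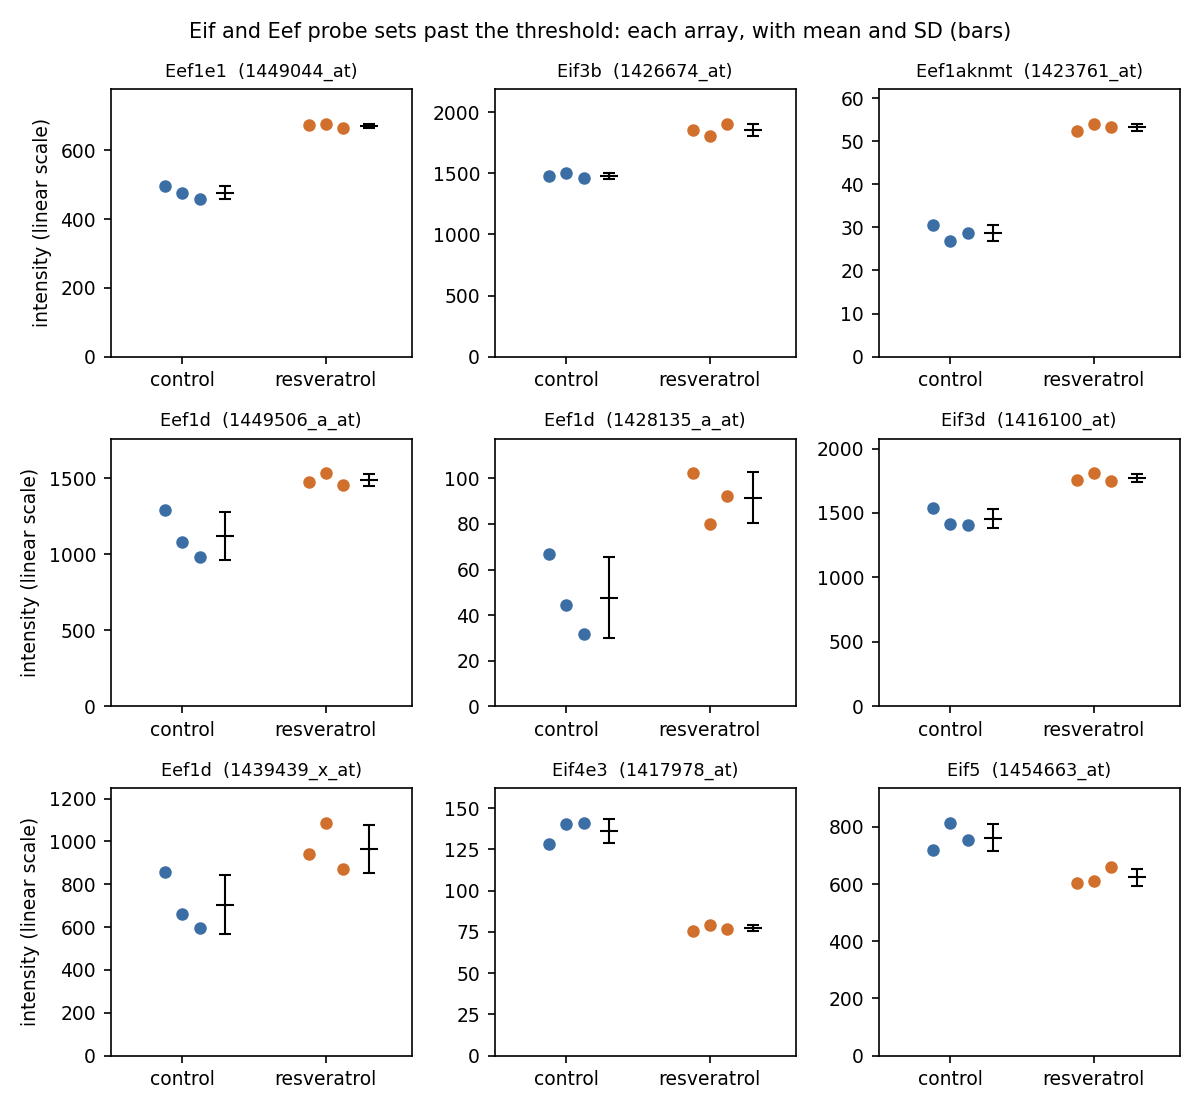
Intensity on a linear scale (vertical axis, from 0) of the 9 translation factor probe sets with an adjusted p under 0.05, with 1 point per array in control (blue) and resveratrol (orange) and bars for mean and SD over 3 arrays. In all 9 panels the 3 points of one group lie apart from the 3 of the other, as in Eef1e1 with 459 to 496 against 665 to 677.

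Promoter sequence from RefSeq (assembly GRCm38.p6) is shown for Eif3b, Eif3d and Eef1e1, which rose, and for factors whose promoters share an E-box. The latter were not called by brightest probe set, which does not mean unchanged. For Eif4e the 95% interval of the log2 change was 0.07 to 0.40. Of the 59 genes 48 had an entry (250 bases before to 50 after the start), and Eef1d was among the 11 without one. The 100 bases before the start of the genes that rose, at chr5:140419205-140419304 (+ strand) for Eif3b, chr15:77970825-77970924 (− strand) for Eif3d and chr13:38659029-38659128 (− strand) for Eef1e1, are given 5′ to 3′ in lower case throughout, since none of the motifs searched was found in them.
Eif3b: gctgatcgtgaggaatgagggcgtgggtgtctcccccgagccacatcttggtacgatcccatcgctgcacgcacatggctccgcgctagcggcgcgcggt
Eif3d: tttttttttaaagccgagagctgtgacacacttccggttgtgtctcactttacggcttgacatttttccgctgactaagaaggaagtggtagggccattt
Eef1e1: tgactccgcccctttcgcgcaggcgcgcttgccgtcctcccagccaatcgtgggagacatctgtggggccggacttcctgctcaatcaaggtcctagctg

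The motifs searched on both strands were CACGTG (the E-box read by Myc and Max), ACGTG (contained in every CACGTG) and TGCATCA (a core of elements read by Atf4), and at the start itself a C followed by at least 4 pyrimidines, as in transcripts whose translation follows mTORC1. A gene was counted if any promoter listed for it held the motif. CACGTG was present for 12 of 48 genes (25%), beside 8.09% of all 27025 genes with a promoter entry and 10.3% of the 14369 of them on the array. ACGTG was present for 18 genes (37.5%, against 21.8% and 26.2%) and TGCATCA for 1, Eef1a2 (2.08%, against 3.63% and 2.73%). The pyrimidine start was present for 2, Eif2s3x and Eif3f (4.17%, against 3.01% and 2.94%). The pyrimidine start was read only at the annotated first base, so a start annotated slightly off would be missed. Its share therefore does not tell how many of these transcripts carry such a start. By brightest probe set, 12 of the 12 genes with CACGTG were tested and 0 passed, against 10.5% of all genes. Among them, Eef1aknmt had a dimmer probe set that was called higher, and Eif4a1 passed with quantile normalization. The 12 genes had a median log2 change of 0.05, from −0.08 to 0.45. Of those without it, 33 were tested and 3 were higher, with a median of 0.03. Windows of 25 bases on each side of the E-box, in capitals, are shown for a cap-binding, a helicase, an eIF5A and an elongation gene. They lie at chr3:138527179-138527234 (+ strand) for Eif4e, chr11:69672582-69672637 (− strand) for Eif4a1, chr11:69921430-69921485 (− strand) for Eif5a and chr10:81176563-81176618 (+ strand) for Eef2.
Eif4e: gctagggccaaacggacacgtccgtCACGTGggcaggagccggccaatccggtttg
Eif4a1: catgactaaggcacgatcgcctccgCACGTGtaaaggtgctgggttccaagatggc
Eif5a: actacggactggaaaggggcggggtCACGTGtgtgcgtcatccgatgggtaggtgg
Eef2: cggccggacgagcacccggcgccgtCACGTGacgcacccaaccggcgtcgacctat
The E-box began 64, 189, 74 and 43 bases before the start of these genes. A match in these letters is a description of sequence and not a binding site.

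In the eIF3 scaffold, 2 of 11 subunits rose (beside 5.32% of all genes tested), 0 fell and 9 did not pass. The median log2 change of the 11 was 0.04, and Eif3g is not among them. Whether the share that rose differs from that of all genes was not tested. Eif3b, a core subunit that binds the Eif3i and Eif3g subunits, had intensities of 1475, 1506 and 1460 in control arrays and 1853, 1805 and 1905 in resveratrol arrays. Every treated array was above every control array, and the change was 0.32 ± 0.07 (SE, n = 3 per group, adjusted p = 0.017). Eif3d, the subunit that can itself contact the mRNA cap, had 1540, 1416 and 1407 against 1760, 1807 and 1746. These groups were also apart, with a change of 0.28 ± 0.07 (adjusted p = 0.0367). Within the brighter and within the dimmer arrays Eif3b differed by 0.31 and 0.34, and Eif3d by 0.25 and 0.33. Neither call held through the removal of each array in turn. The highest adjusted p on leaving 1 array out was 0.0661 for Eif3b, without resveratrol replicate 1, and 0.137 for Eif3d, without resveratrol replicate 2. Eif3b stayed past the threshold without control replicate 1 or 3, and Eif3d without control replicate 1.

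Among the other subunits, Eif3l, a peripheral subunit that pairs with Eif3k, had 1579, 1418 and 1335 against 1734, 1790 and 1723. Its groups were apart, but the change of 0.28 did not pass (adjusted p = 0.0581), while it did with the spike block (0.30, adjusted p = 0.045). Eif3i, a propeller-shaped partner of Eif3b, had 0.19 at its brightest probe set (adjusted p = 0.206) and 0.30 at the other (0.0566). Neither passed, although both did with quantile normalization. The remaining Eif3a, Eif3c, Eif3e, Eif3f, Eif3h, Eif3k and Eif3m had changes from −0.06 to 0.05. Eif3a, the largest scaffold subunit, had 2304, 2567 and 2305 in control and 2148, 2298 and 2420 in treated cells, with overlapping groups (−0.06, adjusted p = 0.732). Whether Eif3b and Eif3d differ in response from these subunits was not tested.

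Of the eEF1B exchange complex and its partners, 2 of 3 genes rose (beside 5.32% of all genes tested), and the other, Eef1b2, did not pass. Whether so small a group differs from all genes was not tested. Eef1e1, a scaffold protein of the multi-enzyme tRNA synthetase complex, had 496, 475 and 459 in control and 673, 677 and 665 in resveratrol arrays. The gap between the groups was far wider than the spread within either, 477 ± 18.5 (SD, n = 3) against 672 ± 6.27. Its change of 0.48 ± 0.07 (adjusted p = 0.002) was the largest rise in the set by brightest probe set, and it passed under each alternative tried, with an adjusted p of at most 0.0129 on leaving out any array. Within the brighter and the dimmer arrays it was 0.46 and 0.53.

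Eef1d, the delta subunit that exchanges GDP for GTP on eEF1A, had 1294, 1081 and 983 against 1475, 1532 and 1455 at its brightest probe set. Control arrays were spread more widely than treated ones, 1120 ± 159 against 1488 ± 39.7 (SD, n = 3), but did not reach them. The change was 0.41 ± 0.10 (adjusted p = 0.0241), and 0.31 and 0.59 within the brighter and dimmer arrays. It fell short of the threshold without control replicate 2 or 3 or without resveratrol replicate 1, 2 or 3 (adjusted p up to 0.0947). Of its other probe sets, 1 gave 0.46 ± 0.13 (adjusted p = 0.0491) and a dim one, at 31.8 to 66.8 against 79.8 to 102, gave 0.79 ± 0.19 (0.0286). The dimmest had −0.17 (0.568). Eef1b2, the other exchange subunit of the complex, had 4467, 4857 and 4059 against 4870, 4552 and 4375, so the groups overlapped (0.05, adjusted p = 0.837).

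The main elongation factors themselves did not pass the test. Eef1a1, the carrier of aminoacyl-tRNA in most cells, had 10406, 11788 and 7513 in control and 10099, 7853 and 8284 in treated arrays. The low values are those of the 3 arrays with dim spikes, and the groups overlap, with a change of −0.16 (95% interval −0.51 to 0.19, adjusted p = 0.63) and −0.02 with the spike block. Eef2, the translocase, followed the same order with 5784, 5857 and 4961 against 5588, 5106 and 5221 (−0.06, interval −0.27 to 0.15, adjusted p = 0.795). Eef1a2, the muscle and neuron paralog of Eef1a1, was dim, with 103, 73.3 and 81.0 against 135, 119 and 87.6. These values overlap, and its change of 0.35 did not pass (adjusted p = 0.24). Eefsec, which delivers selenocysteine, had 0.25 (adjusted p = 0.336).

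Methyltransferases that modify eEF1A had 3 genes tested by brightest probe set, of which 0 passed. Eef1aknmt, which methylates the N-terminus and a lysine of eEF1A, had 0.06 there (adjusted p = 0.907). A second, dim probe set of it had 30.6, 26.8 and 28.8 in control and 52.3, 54.0 and 53.3 in treated cells. Those groups were well apart, with a change of 0.63 ± 0.14 (adjusted p = 0.0222), lost without control replicate 2 or without resveratrol replicate 1, 2 or 3 (adjusted p up to 0.0837). Eef1akmt1 and Eef1akmt2 had −0.01 and −0.30 (the latter with adjusted p = 0.275).

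The cap-binding and helicase factors had 10 genes tested, of which 0 passed by brightest probe set, with a median log2 change of −0.01. The lowest of them was Eif4e3, an atypical member of the eIF4E family, which fell at 1 of its 2 probe sets. That probe set had 128, 140 and 141 in control and 75.7, 79.2 and 76.8 in resveratrol arrays, 136 ± 7.25 against 77.2 ± 1.79 (SD, n = 3). No array overlapped, and the change was −0.71 ± 0.11 (adjusted p = 0.00247), −0.71 and −0.74 within the brighter and dimmer arrays, with an adjusted p of at most 0.0156 on leaving out any array. The brighter probe set had 165, 152 and 184 against 131, 120 and 128. It was lower on every treated array too, but at −0.36 ± 0.10 did not pass (adjusted p = 0.0566), although the mean of the probe sets did (−0.53, adjusted p = 0.00253).

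The other cap-binding paralogs had differences of the opposite sign that did not pass. Eif4e, the cap-binding protein itself, had 956, 1026 and 1065 against 1160, 1179 and 1261. Every treated array was above every control array, with a change of 0.24 (interval 0.07 to 0.40, adjusted p = 0.0806). Eif4e2, a cap-binding homolog with repressor functions, had 773, 743 and 649 against 919, 861 and 793, also apart (0.25, adjusted p = 0.119), and passed with the spike block (0.31, adjusted p = 0.0387). Whether Eif4e3 differs from Eif4e in its response was not tested.

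Eif4a1, the main helicase, had 3897, 3515 and 3136 against 4082, 3861 and 3825, with overlapping groups at 0.16 (adjusted p = 0.359). The probe set ranking after its 2 brightest had 0.28 (adjusted p = 0.101), and 0.33 with the spike block (adjusted p = 0.0303). Its paralog Eif4a2 had −0.10. Eif4b, a cofactor of the helicase, was nearly level, at 1765, 1680 and 1672 against 1730, 1700 and 1637 (−0.01, adjusted p = 0.941). The related cofactor Eif4h had 0.11, the scaffold Eif4g3 −0.06 and the shuttling protein Eif4enif1 −0.07. Eif4g1 and Eif2s1 were not analysed here, since no probe set in the annotation used names either one alone.

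Transcripts of the eIF4E-binding repressors did not pass. Eif4ebp1 had 4468, 4051 and 3379 in control and 3526, 3521 and 3202 in treated arrays at its brightest probe set. The groups overlap because of control replicate 3, an array with dim spikes, and the change was −0.21 (interval −0.44 to 0.03, adjusted p = 0.295). Without that array it was −0.32 and passed (adjusted p = 0.0424), which leaves controls with bright spikes only. With the spike block it was −0.14 (adjusted p = 0.379). A second probe set had 2352, 2758 and 2189 against 2044, 1906 and 2062, which do not overlap (−0.27, adjusted p = 0.107). Eif4ebp2, the paralog, had 711, 672 and 625 against 671, 687 and 637 (−0.01, interval −0.18 to 0.16, adjusted p = 0.97).

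None of the 5 kinases that phosphorylate eIF2 or eEF2 passed (median −0.01). Eif2ak3, known as PERK, the sensor of unfolded protein in the endoplasmic reticulum, had 518, 482 and 516 against 457, 431 and 462. The groups were apart, but the change of −0.16 was small (adjusted p = 0.232). Eif2ak2, known as PKR, the sensor of double-stranded RNA, had 135, 137 and 173 against 171, 204 and 178, which overlap (0.29, adjusted p = 0.167). Dimmer probe sets of Eif2ak2 had 0.11 (adjusted p = 0.730) and 0.37 (adjusted p = 0.137), the latter with groups apart. Eif2ak1, the heme-regulated kinase, had −0.12 (adjusted p = 0.477), and Eif2ak4, known as GCN2, the sensor of uncharged tRNA, had −0.01 (0.972). Eef2k, which phosphorylates eEF2 and slows elongation, had 137, 92.6 and 126 against 150, 179 and 132. Those groups overlap, with 0.34 (interval 0.01 to 0.66, adjusted p = 0.209). Its dimmer probe sets had −0.10 (adjusted p = 0.726) and 0.32 (adjusted p = 0.383).

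The 5 subunits of eIF2B, the exchange factor that eIF2 phosphorylation inhibits, had positive differences by brightest probe set. These ran from 0.03 to 0.36 with a median of 0.18, and 0 of them passed. Dimmer probe sets had 0.10 and −0.06 for Eif2b2 and −0.24 for Eif2b5, and did not pass either. Eif2b3, of the catalytic subcomplex, had 174, 150 and 158 in control and 212, 189 and 232 in treated arrays, with no overlap (0.36 ± 0.10, adjusted p = 0.0569). It passed when the brightest 40% of probe sets were tested (adjusted p = 0.0448). Eif2b1 of the regulatory subcomplex had 0.21 (adjusted p = 0.199), and Eif2b5, which carries the exchange activity, had 371, 295 and 303 against 337, 312 and 335 (0.03, adjusted p = 0.911). Of eIF2 and related factors, 4 genes were tested and 0 passed. Eif2s2, the beta subunit, had −0.17 (adjusted p = 0.304), Eif2s3x, the gamma subunit, 0.09, and Eif2d and Eif2a, which load tRNA by other routes, 0.13 and −0.02. Eif2s3y, the Y-linked copy of the gamma subunit, was at 0.5 to 6.3 on every array and was not tested.

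In start-codon scanning and subunit joining, 0 of 6 genes passed by brightest probe set. Eif5, which triggers GTP hydrolysis by eIF2, fell at 1 of its 5 probe sets, with 721, 814 and 754 in control and 605, 610 and 659 in treated arrays. There the groups were apart, with −0.28 ± 0.08 (adjusted p = 0.0461), which was lost with the spike block (0.069) and on leaving out any one array except control replicate 1 (adjusted p up to 0.175). Its other probe sets, from the brightest down, had −0.11 (adjusted p = 0.543), −0.20 (0.199), −0.25 (0.117) and −0.07 (0.794). Eif5b, which joins the ribosomal subunits, had −0.26 (adjusted p = 0.158). The scanning factors of the eIF1A family had 0.25 for Eif1a and 0.11 for Eif1ax, Eif1ad had 0.20, and Eif1b, a paralog of the start-codon factor eIF1, had −0.08.

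Eif5a encodes the factor that carries hypusine, an amino acid made from spermidine, and eases peptide bond formation at difficult sequences. Its brightest probe set had 7112, 8431 and 5527 against 7590, 6503 and 6406, with overlapping groups (−0.02, adjusted p = 0.953). A second one had 3395, 3348 and 3083 against 4205, 3852 and 3924, with every treated array above every control. That difference of 0.28 did not pass (adjusted p = 0.0571) but did with the spike block (0.33, adjusted p = 0.0113). The paralog Eif5a2 was dim and scattered, with 33.6, 24.1 and 50.3 against 71.3, 40.8 and 52.5 (0.45, adjusted p = 0.252). Eif6, which keeps the large subunit from joining too early, had 636, 603 and 653 against 685, 698 and 688, apart but small (0.13, adjusted p = 0.326).

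**Figure D2:**
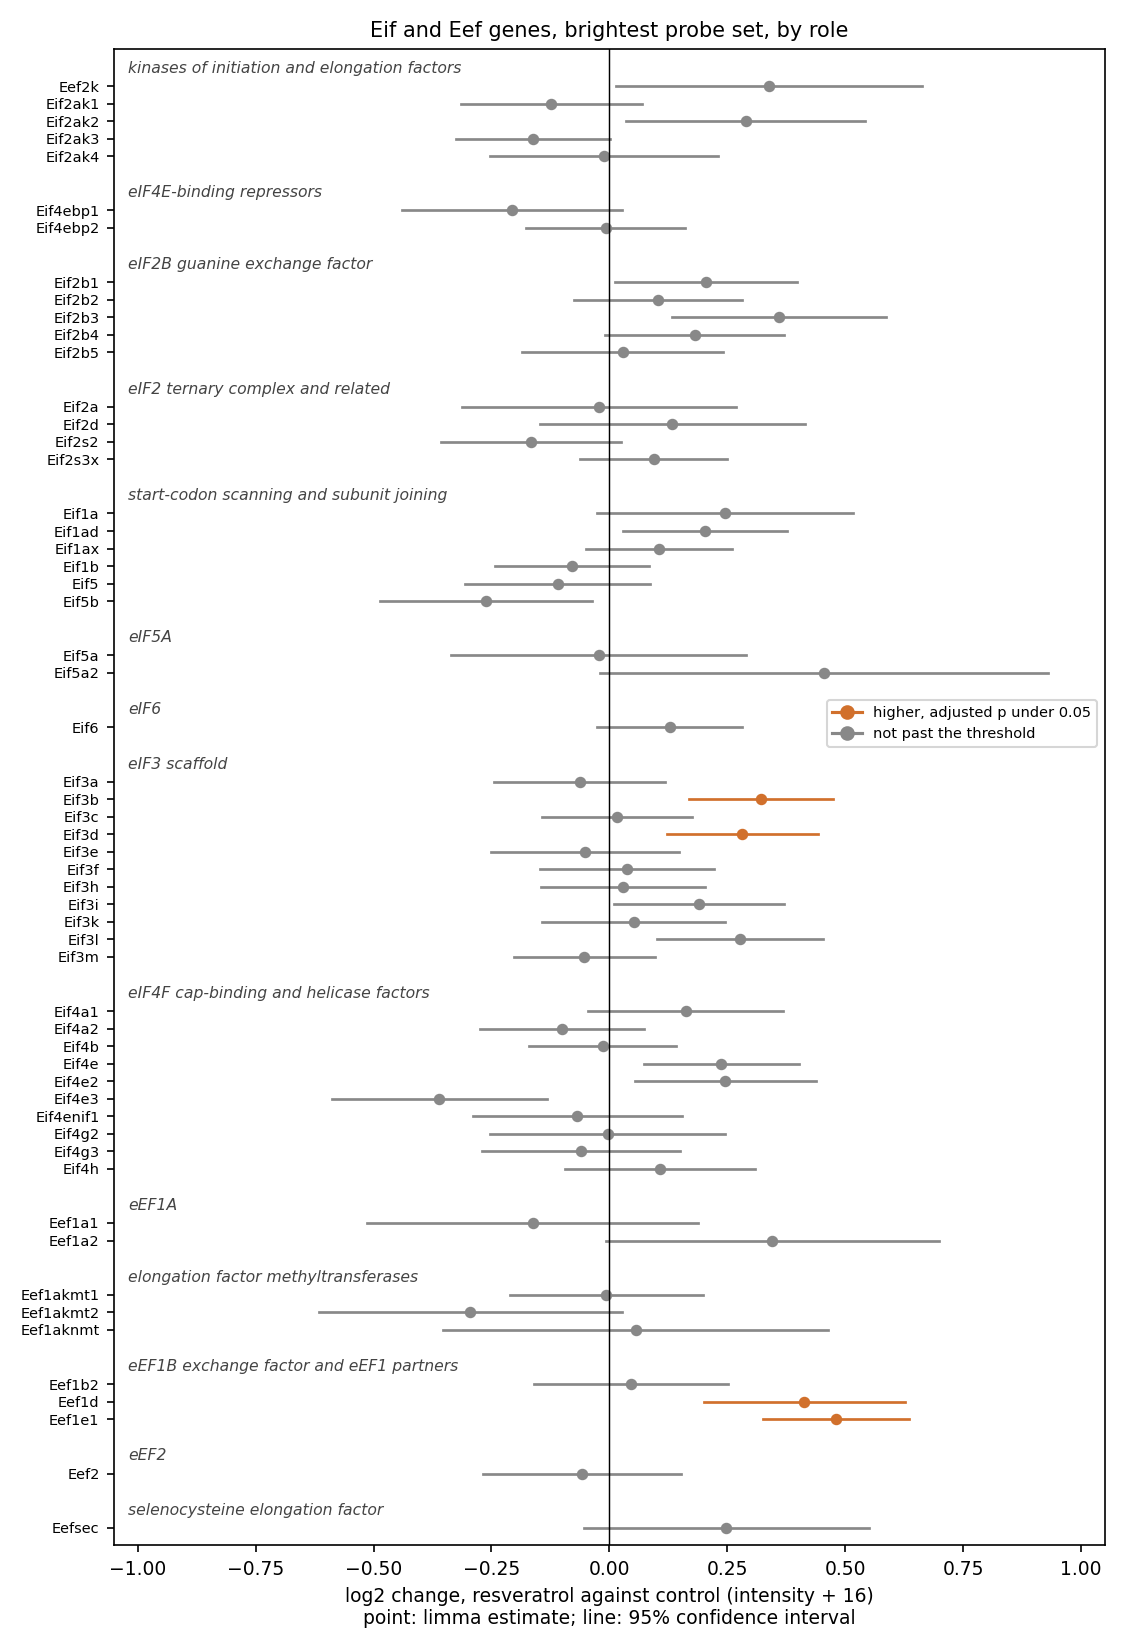
Log2 change of intensity + 16, resveratrol against control, for the brightest probe set of each of the 56 genes tested, grouped by role, with points for the limma estimate and lines for the 95% confidence interval (n = 3 arrays per group). Eif3b, Eif3d, Eef1d and Eef1e1 (orange) are the 4 past the threshold, and the others (grey) range from −0.36 for Eif4e3 to 0.45 for Eif5a2.

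Different probe sets of a gene often gave different values. Of 37 genes with more than 1 tested probe set, 20 had probe sets that differed in sign. Eef1aknmt, Eif4e3 and Eif5 were each called at a probe set other than their brightest, and the values above are from single probe sets, which may read different transcript forms. Eef1d had 3 of 4 tested probe sets called, and the suffix of each of these IDs marks probes that may read several transcripts. Without such probe sets Eef1e1, Eif3b and Eif3d were the genes called.

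**Figure D3:**
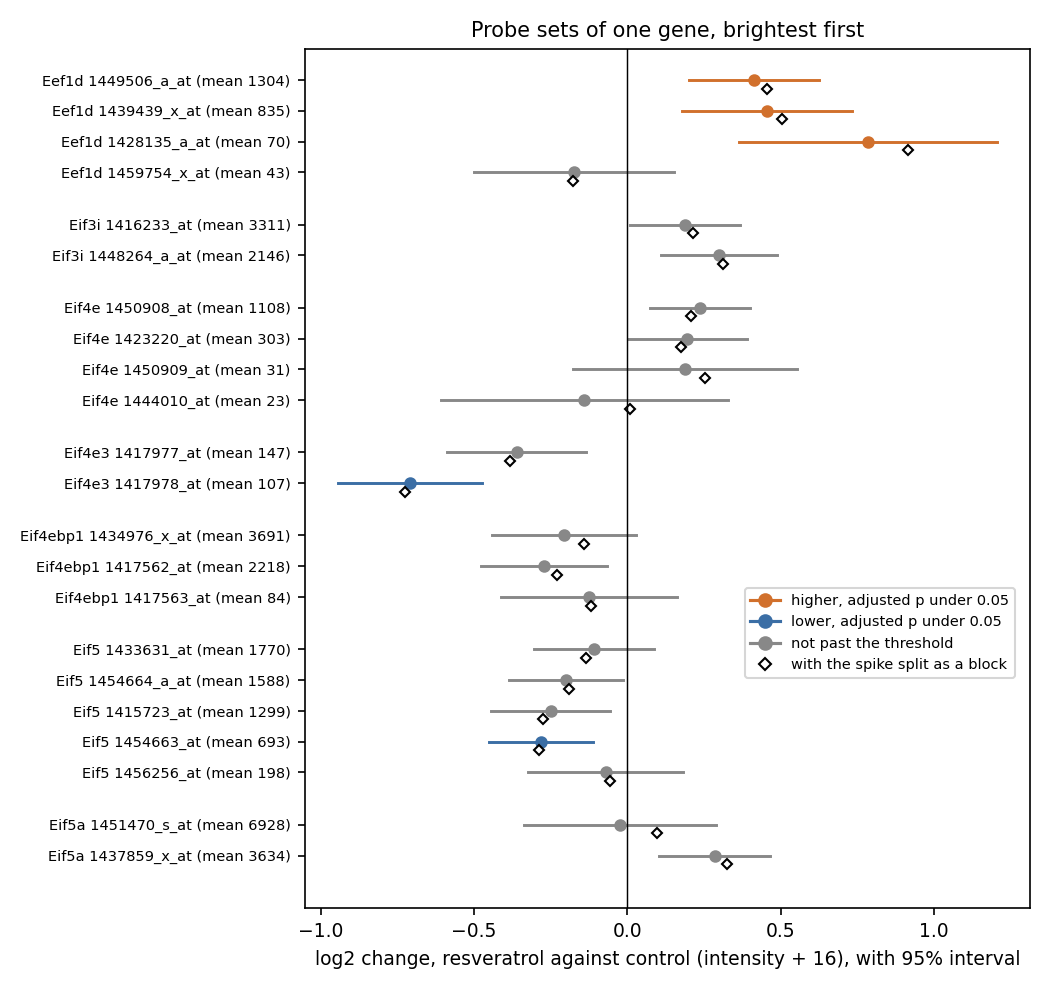
Log2 change of intensity + 16 for each tested probe set of 7 genes (points with 95% intervals, brightest first, mean intensity over 6 arrays in the label), with diamonds for the estimate with the spike split as a block. For Eif4e3 the 2 probe sets stand at −0.36 and −0.71, and for Eif5a at −0.02 and 0.28.

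The genes around these factors were read from 7 lists with 108 genes, 95 of them tested by brightest probe set. Of these, 7 were higher and 8 lower (15.8% called, beside 10.5% of all genes), with a median log2 change of −0.01. The lists were chosen with results of these data known, so neither this share nor that of any single list below is independent evidence. This count fell from 15 to 8 without control replicate 2, to 8 without resveratrol replicate 2 and to 9 without resveratrol replicate 3. Among the called genes, Odc1, Srm, Dhps, Trib3, Atf5, Myc, Lamtor5 and Sesn1 were read from probe sets with a suffix _s_at, _x_at or _a_at. Such probes may read several transcripts, and without these probe sets the count was 8. The list of 10 genes for making spermidine and hypusine, and for controlling their level, had 3 higher and 0 lower of 8 tested (37.5%, beside 10.5% of all genes), with a median of 0.30. Odc1, the rate-limiting enzyme of polyamine synthesis, had 907, 853 and 956 in control and 1374, 1458 and 1315 in treated arrays, far apart (0.60 ± 0.08, adjusted p = 0.000806). Srm, spermidine synthase, had 1577, 1442 and 1383 against 2132, 2221 and 2075, also apart (0.54 ± 0.08, adjusted p = 0.00173). Dhps, the first enzyme of hypusine formation, rose by 0.41 (adjusted p = 0.0392, lost with the spike block at 0.0784). Dohh, the second, had 0.50 and did not pass (adjusted p = 0.132), but did with the spike block (0.64, adjusted p = 0.0372). The others tested act against or around this synthesis and did not pass: the antizymes Oaz1 and Oaz2, which inhibit Odc1, had 0.18 and 0.14, the antizyme inhibitor Azin1 had 0.02, and Sat1, which acetylates spermidine for breakdown, had −0.06.

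Another list held targets of the integrated stress response, which the eIF2 kinases set off, together with phosphatases of eIF2. In it 0 were higher and 5 lower of 20 tested (25% called, beside 10.5% of all genes, 5.21% of them lower), with a median of −0.18. Trib3, a pseudokinase induced by this pathway, had 572, 466 and 499 in control and 283, 262 and 256 in treated arrays, with no overlap (−0.90 ± 0.09, adjusted p = 0.000181). Ddit3, which encodes CHOP, had 682, 634 and 537 against 399, 432 and 447 (−0.51 ± 0.09, adjusted p = 0.00749). Cebpg, Cebpb and Atf5, transcription factors of the response, fell by 0.34, 0.29 and 0.35 (adjusted p = 0.0105, 0.0371 and 0.0483). Atf4, whose mRNA is translated when eIF2 is phosphorylated, had 2585, 2874 and 2935 against 2858, 2605 and 2692, which overlap (−0.04, adjusted p = 0.84), and its target Asns, asparagine synthetase, had −0.05 (0.796). Atf3, another transcription factor of the response, had the largest change of the list and the opposite sign, with 58.7, 50.7 and 11.3 against 59.4, 97.0 and 91.8. It was dim, its low value came from control replicate 3, and the change of 0.92 did not pass (adjusted p = 0.115).

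The Myc family list had 2 higher and 1 lower of 7 tested (42.9%, beside 10.5% of all genes). Myc, whose protein binds the E-box with Max, had 428, 328 and 359 against 566, 543 and 632, apart at 0.63 ± 0.10 (adjusted p = 0.0038). Max rose by 0.45 (adjusted p = 0.0342), and Mxi1, an antagonist of Myc, had 510, 579 and 523 against 351, 352 and 367 (−0.57 ± 0.08, adjusted p = 0.00133). The mTORC1 and S6 kinase list had 2 higher and 1 lower of 27 tested (11.1%, near the background of 10.5%), with a median of 0.04. Lamtor5, of the complex that tethers mTORC1 to lysosomes, rose by 0.52 (adjusted p = 0.00996), and Sesn1, a sestrin inhibitor of mTORC1, by 0.38 (0.0353). Ddit4, another inhibitor of mTORC1, fell by 0.44 (adjusted p = 0.0175), and Mtor itself had −0.19 (0.184). Akt1s1, a subunit that restrains mTORC1, had 0.25 (adjusted p = 0.219) and passed with the spike block (0.34, adjusted p = 0.0332).

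The remaining lists had few calls. Of 10 mitochondrial translation factors tested, 0 were higher and 1 lower (10%, beside 10.5% of all genes), Mtif2, the mitochondrial initiation factor, at −0.29 (adjusted p = 0.0493, lost with the spike block at 0.0823), and the median was −0.15. Among 15 partners and regulators of the cap complex 0 passed, and the smallest p belonged to Paip2, an inhibitor of poly(A)-binding protein, with −0.25 (adjusted p = 0.0629), and the helicase Ddx3x, with −0.18 (0.285). Among 8 release and recycling factors 0 passed, with a median of 0.08, and the smallest p belonged to the release factors Gspt1, with 0.20 (adjusted p = 0.141), and Gspt2, with 0.41 (0.325).

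**Figure D4:**
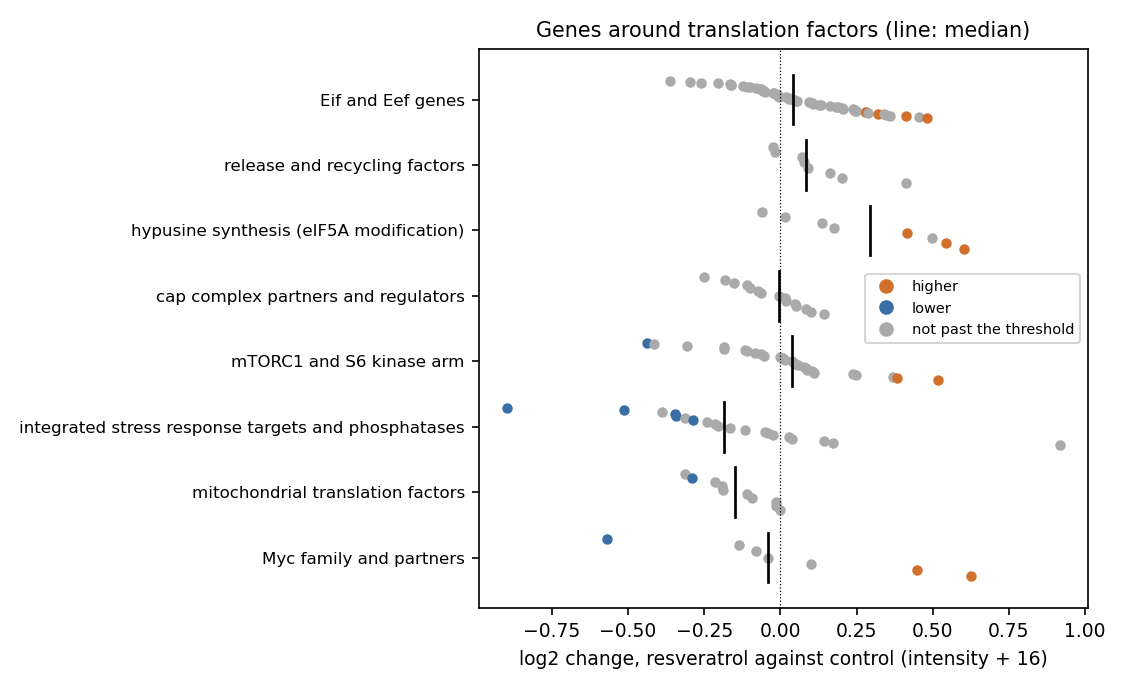
Log2 change of intensity + 16, resveratrol against control, of each tested gene (points) of the Eif and Eef set and the 7 lists around it, with a line at the median and colours for genes past the threshold (orange higher, blue lower). The lists with the highest and lowest medians are hypusine synthesis at 0.30 and the integrated stress response at −0.18, and the Eif and Eef genes lie around 0.04.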

How the data were processed

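Total RNA of 6 cultures was labelled with biotin and read on 1-colour Affymetrix arrays, per the labels' protocols. Each probe set has 1 deposited value, a linear intensity, which the authors scaled with 1 factor per array, as read from the equal trimmed means. Summary software was not given in the sources used. Such scaling leaves differences between arrays at the bright end in place. Here log2(intensity + 16) was used, which understates changes of dim probe sets. Leaving out 64 control probe sets, the 60% of the rest with the highest mean over 6 arrays, 27022 in number, were tested by limma 3.58.1 in R 4.3.3 (lmFit, eBayes with an intensity trend, 2-sided, Benjamini-Hochberg over all tested, threshold 0.05). The number of arrays, 3 per group, limits precision. Each gene was read from its brightest probe set. All 156 probe sets matched the RefSeq table (GRCm38.p6), with 0 symbols changed. Figures were drawn with matplotlib 3.10.9 in Python 3.11.15.

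The members and lists were chosen with earlier results of these data known. Named were genes with any probe set past the threshold, 21 translation factors chosen by role (Eif4e, Eef2 and the like), the 5 largest changes not past it, paralogs within a role, and from each list up to 6 genes past the threshold or else the 2 with the smallest p. Eif3i, Eif3l, other eIF3 subunits and the factors given by value alone were named beside them to complete a role. Dohh, Atf4, Asns, Atf3, Mtor, Akt1s1, the antizyme genes, Sat1 and the marker genes named fall outside this rule and were chosen after their values were seen. The alternatives tried were no filter, offsets of 1 and 64, quantile normalization, the brightest 40% of probe sets, no intensity trend, the replicate number or the spike split as a block, averaging the probe sets of a gene, dropping probe sets with the suffix _s_at, _x_at or _a_at, and leaving out each array.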

Additional observations from a re-analysis of the deposited data

How the results depend on the processing

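The direction of each called gene and probe set held under every alternative run. Eef1e1 and the lower probe set of Eif4e3 passed in all of them, while Eif3b, Eif3d, Eef1d, Eif5 and Eef1aknmt did not. The 4 genes called became 8 with quantile normalization, 7 with the brightest 40% of probe sets, 2 with no filter and 1 with no intensity trend, and 1 to 5 on leaving out an array. The 9 probe sets became 16 with quantile normalization, 3 with no filter and 3 with no intensity trend, and 2 to 11 on leaving out an array. The 15 genes of the lists became 8 with no filter, 5 with no intensity trend and 8 without probe sets of the suffixes _s_at, _x_at or _a_at, and 8 to 14 on leaving out an array. The replicate number as a block gave 7 probe sets, 3 genes and 13 list genes. Deviations of same-numbered arrays from their group means had correlations of −0.06, −0.02 and 0.09. Whether such arrays were prepared together cannot be told from these values. Among the named genes recomputed under each alternative, signs turned for some that were not called. With quantile normalization these were Eef2 (0.00194), Eif4b (0.0058) and Eif5a (0.13). With the spike block they were Eif4b (0.00190), Eif4ebp2 (0.019) and Eif5a (0.10), and of the other member genes Eif4g2 (0.085) and Eef1akmt1 (0.015). With the mean of probe sets they were Eif2ak4 (0.044), Eif2b5 (−0.10), Eif4ebp2 (0.047) and Eif5a (0.13). On leaving out an array, Eef1aknmt (brightest probe set) ranged from −0.13 to 0.17, Eef1b2 from −0.020 to 0.11, Eif2ak4 from −0.064 to 0.052, Eif2b5 from −0.030 to 0.13, Eif4b from −0.031 to 0.011, Eif4ebp2 from −0.055 to 0.035 and Eif5a from −0.18 to 0.12. The number of arrays and the dimness of Eif5a2 and Eef1aknmt limit precision, and the causes of these shifts were not tested.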
